A study of Homo sapiens with 14 samples.

Results

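MYC and 35 genes of ribosome biogenesis were followed through the long-term culture (LTC) of colorectal cancer cells. The 36 genes were taken by symbol from a list, and all 36 were found among the 36601 genes of the single-cell matrices and in the bulk gene tables. They were MYC and its partner MAX, 6 genes of RNA polymerase I transcription, 3 protein genes of the box C/D and 3 of the box H/ACA small nucleolar ribonucleoproteins, 5 nucleolar scaffold and shuttling proteins, 8 factors of small subunit maturation and 9 of large subunit maturation.

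Ribosomes are assembled in the nucleolus, where RNA polymerase I makes the precursor of most ribosomal RNA, small nucleolar ribonucleoproteins mark where it is modified, and many further factors fold and cut it around the ribosomal proteins. MYC, a transcription factor that binds DNA together with MAX, is a known activator of many of these genes, and its favored binding motif is the E-box CACGTG. In colorectal cancer, MYC is a well-known target of the WNT pathway and ribosome production is commonly raised.

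SW620, a human line derived from a lymph node metastasis of colorectal cancer, carried either a FLAG vector (SW620-FLAG, labelled SW620, "FLAG cells" in the single-cell data) or a construct of the catalytic domain of TET2 (SW620-TET2CD, "TET2CD cells"), an enzyme that oxidizes methylated cytosine in DNA. Droplet-based single-cell RNA-seq was made of each line on days 6, 9, 12 and 15 of LTC, with 1 library per line and day. Bulk RNA-seq covered whole cultures of SW480, a line from the primary tumor of the same patient as SW620, and of SW620 on day 6, and the cells inside and outside the colonies of SW620 and SW620-TET2CD on day 15, again with 1 library each. The labels of the bulk SW620 cultures do not name a vector. No line and day has a second library, so days 6 and 9 ("early") were compared with days 12 and 15 ("late") over both lines, and p-values measure only the spread between these libraries.

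After the cell filters, 3894 to 8154 cells per single-cell library were kept, with 48186195 to 74185723 summed UMIs (counted molecules) and a median of 6640 to 13479 UMIs per cell. Levels are given as CPM, in which the summed UMIs of each library are scaled to the same total. Between any 2 single-cell libraries, 1 to 23 cell barcodes were shared, at most 0.334% of the smaller library. TET2 was at 2.11 to 3.90 CPM in the SW620-FLAG libraries. In those of SW620-TET2CD it was at 107, 59.5, 40.2 and 41.6 CPM on days 6, 9, 12 and 15. The epithelial markers EPCAM (496 to 639 CPM) and KRT8 (2991 to 4327 CPM) were present in every single-cell library, and KRT20 was near 0 (0.217 to 0.965 CPM). Of the leukocyte markers, PTPRC reached at most 0.0197 CPM, while CD68 and LYZ were present in every single-cell library and reached 36.9 and 31.5 CPM.

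The promoters of the genes were searched for the E-box because it is the motif that MYC and MAX bind. RefSeq windows on GRCh38.p14, from 250 bases before to 50 bases after a RefSeq gene start, were matched for 29 of the 36 genes, and MYC, NOP58, NOLC1, RRP12, BOP1, RRS1 and RRP1B had none. The letters CACGTG, which read the same on both strands, stood in a window of 13 of these 29 genes (44.8%), against 1727 of 15842 protein-coding genes (10.9%). Counted by window, it stood in 13 of the 38 windows of these genes (34.2%), against 7.26% of all 35116 windows. In all 13 windows the E-box began within 35 bases of the gene start, a distance chosen after these positions had been seen, against 27.8% of the 1851 windows of protein-coding genes with an E-box. The median GC content was 63.8% in the windows of the 29 genes and 58.7% in all windows. For each role with an E-box, the gene with the deepest late fall is shown, on its own strand from 5′ to 3′, with the E-box in capitals.
MYBBP1A (chr17:4555340-4555369, - strand): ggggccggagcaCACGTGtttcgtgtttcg
FBL (chr19:39846356-39846385, - strand): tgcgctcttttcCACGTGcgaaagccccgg
GAR1 (chr4:109815781-109815810, + strand): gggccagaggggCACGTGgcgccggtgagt
GNL3 (chr3:52686026-52686055, + strand): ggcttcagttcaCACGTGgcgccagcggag
UTP20 (chr12:101280083-101280112, + strand): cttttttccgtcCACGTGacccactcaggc
PES1 (chr22:30591880-30591909, - strand): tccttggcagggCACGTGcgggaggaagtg
Counted from the RefSeq start of the window, which need not be the outermost start of the gene in other annotations, the E-box began 10 bases before it in UTP20, and after it by 27 bases in MYBBP1A, 6 in FBL, 31 in GAR1, 6 in GNL3 and 13 in PES1. BYSL, DDX21, NOP14, NOP2, RRP9, UTP4 and WDR43 also held it. GAR1, GNL3 and DDX21 each had another window, from a further start, without it. The motif is a run of letters in these windows, and binding of MYC was not measured.

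Of the 36 genes, 33 fell and 1 rose between the early and the late days, while MYC and MAX did not pass the test. This rests on edgeR's quasi-likelihood test of the summed counts of 8 libraries, with the line as a block and Benjamini-Hochberg adjustment over 16993 tested genes, in which 57.7% of all genes were called, 28.3% as lower and 29.4% as higher. All 36 passed the filter on low counts. Their median log2 fold change was -1.01, against 0.04 over all tested genes. The summed level of the 36 genes was 7727 and 6814 CPM on days 6 and 9 in FLAG cells and 4235 and 3502 CPM on days 12 and 15. In SW620-TET2CD it was 7663 and 6619 CPM, then 4757 and 4064 CPM. For 33 genes all 4 late libraries lay below all 4 early ones, which was so for 21.9% of all tested genes, and for 1 gene all lay above, as for 30.1% of all tested genes. Only MYC and MAX overlapped between the periods.

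**Figure D1:**
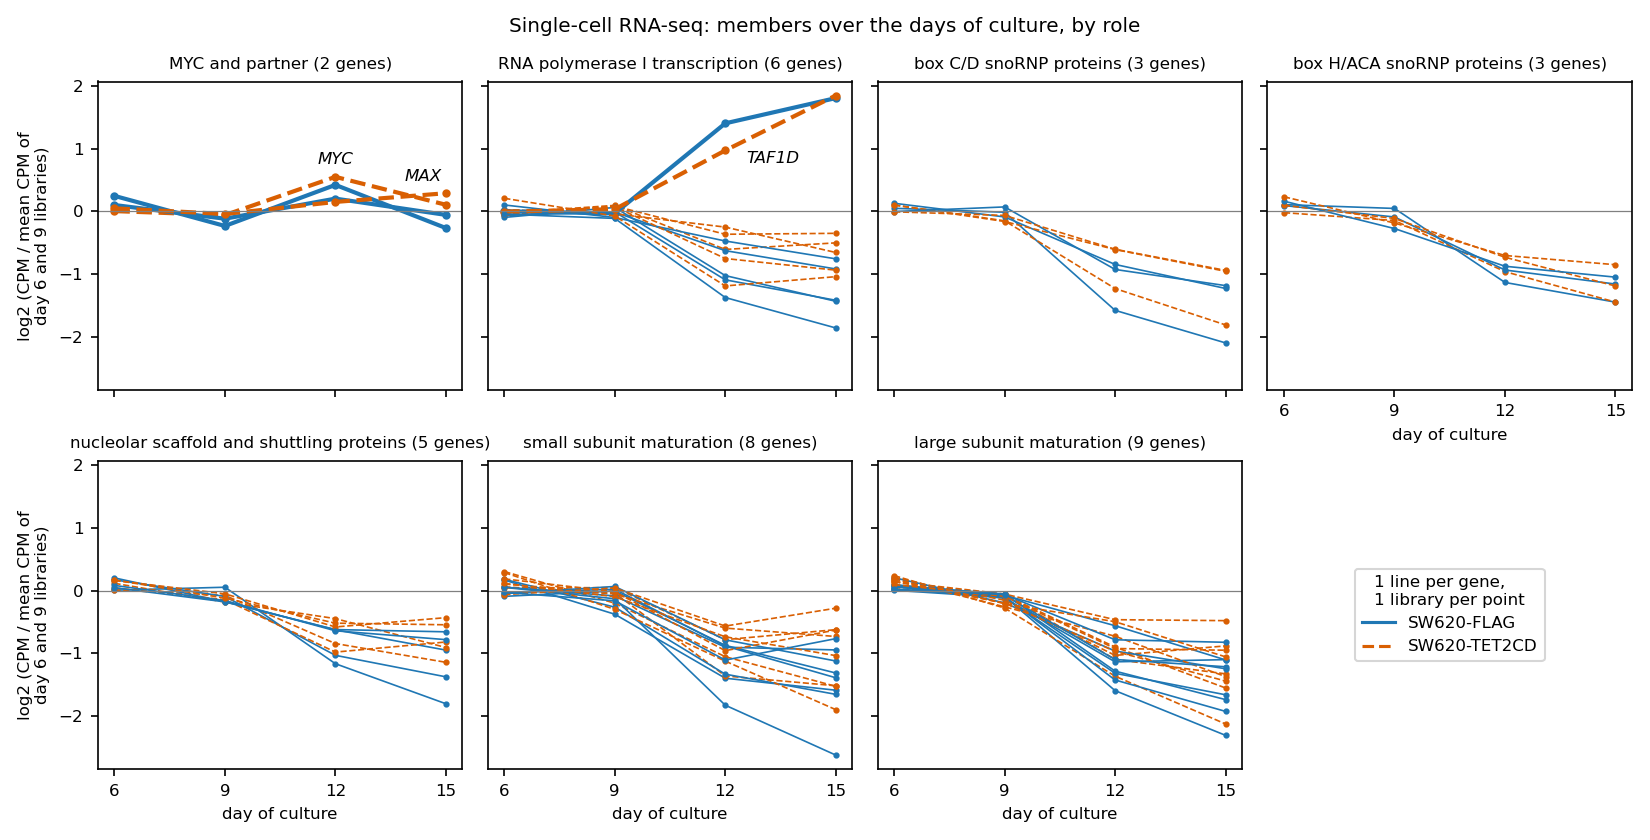
Each line follows 1 gene through the 4 days (x axis, day of culture) in FLAG cells (solid blue) or SW620-TET2CD (dashed orange), as log2 of its CPM over its mean in the 4 early libraries (y axis), in a panel per role. All lines but those of MYC, MAX and TAF1D lie under 0 on days 12 and 15.

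MYC RNA did not follow the genes of ribosome biogenesis. On days 6, 9, 12 and 15, MYC was at 131, 93.7, 147 and 91.6 CPM in FLAG cells and at 110, 106, 161 and 118 CPM in TET2CD cells. Day 12 was the highest in both lines, and the ranges of the early libraries (93.7 to 131 CPM) and the late ones (91.6 to 161 CPM) overlapped. On the same days the median UMIs per cell were 13479, 6640, 13110.5 and 7127 in FLAG cells. In TET2CD cells they were 8615.5, 11152, 12379 and 8310.5, and the part of this depth in the MYC levels was not tested. The fitted log2 fold change was 0.11 (SE 0.17, 95% interval -0.26 to 0.49), with an adjusted p of 0.587 by edgeR's quasi-likelihood test, Benjamini-Hochberg adjusted. MAX, with 39.0 to 45.3 CPM early and 40.6 to 51.6 CPM late, had a log2 fold change of 0.03 (SE 0.10, interval -0.19 to 0.26, adjusted p = 0.797 in the same edgeR test). Both intervals exclude a fall of the median size of the 36 genes. Once every cell had been thinned to 2000 UMIs, 14.3% to 24.8% of cells held a MYC UMI, with the highest shares on day 12 (22.5% in FLAG cells and 24.8% in TET2CD cells), against 37.5% to 73.5% of cells before thinning. The part of free RNA in these shares was not tested.

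**Figure D2:**
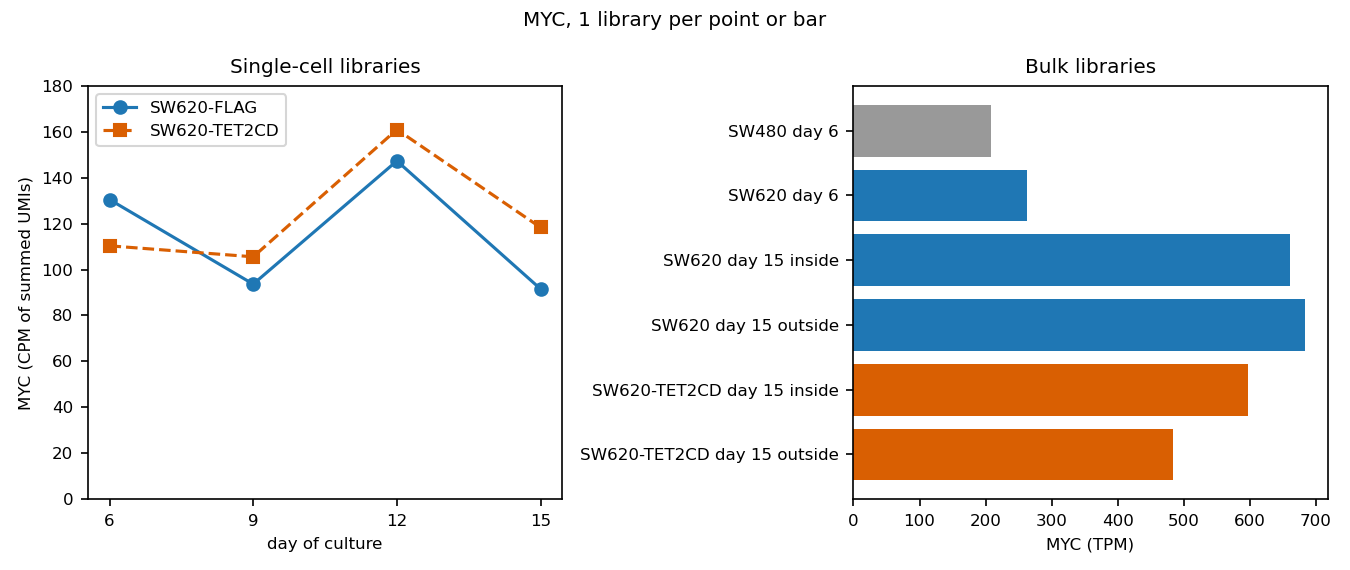
The level of MYC is shown for the 8 single-cell libraries (left, CPM of summed UMIs by day of culture) and the 6 bulk libraries (right, TPM), 1 library per point or bar. The single-cell lines peak on day 12, and the 4 bulk libraries of day 15 (484 to 683 TPM) all lie above both of day 6 (208 and 262 TPM).

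RNA polymerase I transcription was the role in which the genes parted. POLR1A and POLR1B, the large catalytic subunits, fell by 1.01 and 0.67 on the log2 scale, POLR1C, which RNA polymerase III also uses, fell by 0.63, and UBTF, which opens the ribosomal DNA, fell by 1.14. MYBBP1A, a nucleolar MYB-binding protein, was at 34.5, 32.9, 13.7 and 9.82 CPM on days 6, 9, 12 and 15 in FLAG cells and at 41.0, 33.8, 15.6 and 17.3 CPM in TET2CD cells, and fell by 1.47 (SE 0.13). TAF1D, a subunit of the promoter selectivity factor SL1, went the other way. It was at 135, 132, 356 and 470 CPM in FLAG cells and at 134, 138, 264 and 484 CPM in TET2CD cells on the same days. Every late library lay above the early ones, which ranged from 132 to 138 CPM. Its log2 fold change was 1.43 (SE 0.19, adjusted p = 0.000132 by edgeR's quasi-likelihood test, Benjamini-Hochberg adjusted). TAF1D (ENSG00000166012) lies on the - strand of chromosome 11, from 93729948 to 93784391 (GRCh38).

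All 6 small nucleolar ribonucleoprotein genes of the list fell. Outside the list, 7 of 10 such genes and their assembly genes were lower, against 28.3% of all tested genes. SNU13, at 455 to 501 CPM early and 418 to 519 CPM late, overlapped between the periods. NOP56, a core protein of the box C/D particles that guide methylation of ribosomal RNA, was at 499, 478, 162 and 113 CPM on days 6, 9, 12 and 15 in FLAG cells and at 518, 435, 206 and 138 CPM in TET2CD cells. The highest late level, 206 CPM, lay far under the lowest early one, 435 CPM, and the fitted log2 fold change was -1.76 (SE 0.17, adjusted p = 2.87e-05 by edgeR's quasi-likelihood test, Benjamini-Hochberg adjusted). Its core partner NOP58 and the methyltransferase FBL both fell less, with a log2 fold change of -1.01 for NOP58 and -1.02 for FBL. Of the box H/ACA particles, which guide the making of pseudouridine, the pseudouridine synthase DKC1 (218 to 260 CPM early, 88.6 to 124 CPM late) fell by 1.34, NHP2 by 1.10 and GAR1 by 0.98 on the log2 scale.

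All 5 nucleolar scaffold and shuttling proteins fell. Nucleolin, NCL, was at 1339, 1384, 595 and 383 CPM on days 6, 9, 12 and 15 in FLAG cells and at 1344, 1265, 743 and 604 CPM in TET2CD cells, and fell by 1.33 (SE 0.16) on the log2 scale. Nucleophosmin, NPM1, fell from 1969 to 2570 CPM early to 1159 to 1640 CPM late, with a log2 fold change of -0.83 (SE 0.16). NPM1 has many processed pseudogenes, and how reads shared with them were assigned was not tested. NOLC1, a chaperone of the small nucleolar ribonucleoproteins, fell by 1.16, the nucleostemin gene GNL3 by 0.73 and the RNA helicase DDX21 by 0.68. In the cells without cell cycle UMIs described below, NOLC1 (-0.39), NPM1 (-0.37), GNL3 (-0.17) and DDX21 (0.02) were no longer called. NPM1 (-0.80) was not called in SW620-TET2CD alone either.

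Among the 8 factors of small subunit maturation, all of which fell, the deepest change was that of UTP20, a large scaffold of the early precursor. UTP20 was at 40.9, 36.1, 11.2 and 6.43 CPM on days 6, 9, 12 and 15 in FLAG cells and at 42.4, 38.5, 15.4 and 13.8 CPM in TET2CD cells. The late libraries lay far below the early ones in both lines. Its log2 fold change was -1.92 (SE 0.18, adjusted p = 2.13e-05 by edgeR's quasi-likelihood test, Benjamini-Hochberg adjusted). RRP9, which binds the U3 small nucleolar RNA, was at 36.4 to 54.6 CPM early and 12.0 to 20.5 CPM late, and fell by 1.58 (SE 0.21, adjusted p = 0.000148 in the same edgeR test). In the cells without cell cycle UMIs described below, RRP9 was at -0.72 and was not called. UTP4, a subunit of the complex that first binds the nascent precursor, fell by 1.49, BYSL and NOP14 by 1.01 and 1.00, WDR43 by 1.00, RRP12 by 0.96 and HEATR1 by 0.80.

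All 9 factors of large subunit maturation fell. BOP1 and PES1, which together with WDR12 form the PeBoW complex needed for large subunit RNA processing, were among the 5 deepest changes, and WDR12 was not. BOP1 was at 82.1, 72.6, 25.7 and 15.7 CPM on days 6, 9, 12 and 15 in FLAG cells and at 91.5, 64.0, 30.2 and 17.8 CPM in TET2CD cells (log2 fold change -1.92, SE 0.21, adjusted p = 5.57e-05 by edgeR's quasi-likelihood test, Benjamini-Hochberg adjusted). PES1 was at 58.8 to 69.2 CPM early and at 16.6 to 33.7 CPM late (log2 fold change -1.53, SE 0.17, adjusted p = 6.55e-05 in the same edgeR test). WDR12 went from 45.1 to 50.8 CPM early to 22.1 to 34.5 CPM late and fell by 0.76 (SE 0.12). Whether these falls differ in size within the complex was not tested. RRS1 and PPAN fell by 1.45 each, NOP16 by 1.16, RRP1B by 1.16, the RNA methyltransferase NOP2 by 1.15 and WDR74 by 0.88 on the log2 scale.

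**Figure D3:**
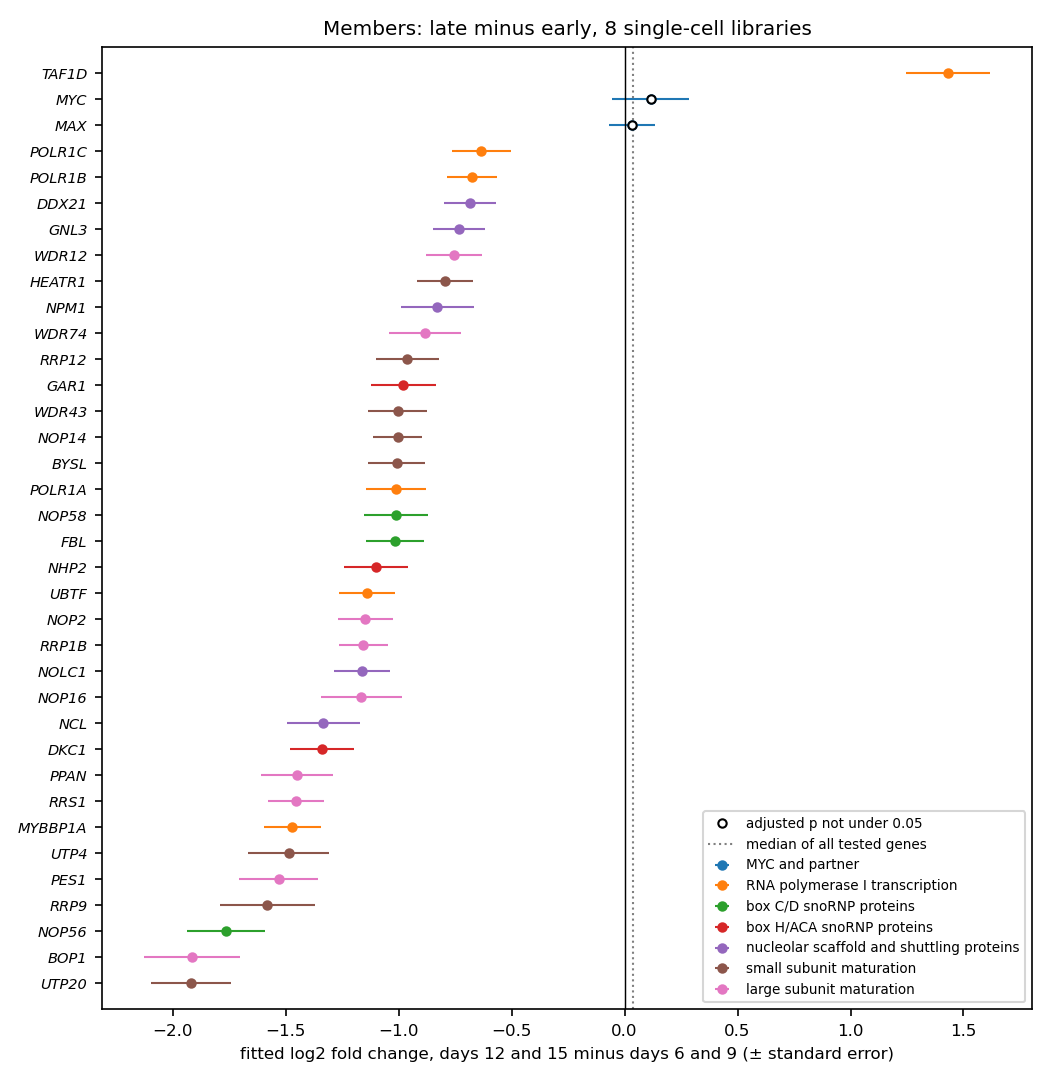
The fitted log2 fold change of each of the 36 genes between late and early days (x axis, bars are the standard error) is colored by role, with open circles for adjusted p not under 0.05. From POLR1C (-0.63) to UTP20 (-1.92), 33 genes lie left of 0, MAX and MYC lie at 0.03 and 0.11, and TAF1D lies at 1.43.

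The late changes were also grouped by the E-box. The 13 genes with the motif had a median log2 fold change of -1.02 (-1.92 to -0.68), the 16 with a window and no motif a median of -0.95 (-1.76 to 1.43), and the 7 without a window a median of -1.16. The difference between these groups was not tested.

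The fall was also seen in ribosome biogenesis genes beyond the 36. Of 130 other genes of the pathway, 129 were matched. On the late days 113 were lower, 4 were higher and 12 were not called, against 28.3% lower and 29.4% higher of all tested genes. Their median log2 fold change was -0.84. The share that was lower was 21 of 22 genes of the exosome and RNase MRP, 38 of 42 of small subunit maturation, 40 of 45 of large subunit maturation, 7 of 10 of RNA polymerase I and 7 of 10 of snoRNP proteins and their assembly. The deepest falls were those of EBNA1BP2 (-1.86) and CD3EAP (-1.84), a subunit of RNA polymerase I, and the largest rises those of NOP53 (0.67) and POLR1D (0.55), a subunit of RNA polymerases I and III. Of 20 MYC targets outside ribosome biogenesis, 18 were lower, led by ODC1 (-2.38) and SRM (-2.15), enzymes of polyamine synthesis, while LDHA (0.05) and SHMT2 (0.13) were not called. In the wider network of MYC and its antagonists, 10 of 11 genes were tested. MXI1 (1.79), MXD1 (1.60) and MLXIPL (0.49) rose, MXD3 (-0.84) fell, and 6 were not called. Of the 10 estimates 6 were lower and 4 higher, with a median of -0.07, so the network did not move as a whole.

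The cell cycle moved with these genes. All 30 genes of a cell cycle list were lower on the late days, against 28.3% of all tested genes, with a median log2 fold change of -2.50. The share of cells without a single UMI of that list, after thinning to 2000 UMIs, went from 4.33% to 9.47% early to 50.7% to 62.7% late. The early libraries held 275 to 604 such cells and the late ones 1965 to 4279. In these cells alone, the summed level of the 36 genes was 4683 to 5105 CPM in the 4 early libraries and 3125 to 4151 CPM in the 4 late ones, which did not overlap. In the edgeR test on these cells, 20 of the 36 genes were lower and TAF1D was higher (1.37), against 12.9% of 11045 tested genes lower and 13.1% higher. The median log2 fold change of the 36 genes was -0.59. No longer called were RRP9 (-0.72), MYBBP1A (-0.51), HEATR1 (-0.43), POLR1B (-0.40), NOP2 (-0.39) and NOLC1 (-0.39). The same held for NOP58 (-0.38), NPM1 (-0.37), GAR1 (-0.35), RRP12 (-0.33), WDR74 (-0.28), GNL3 (-0.17) and DDX21 (0.02). How far the lower counts of these cells added to the loss of calls was not tested. Having no UMI of the list at 2000 UMIs does not show that a cell was outside the cycle. In cells thinned to 4000 UMIs, only 122 to 238 cells per early library and 1333 to 2734 per late library held none. The part of cycling cells left among those without such UMIs, which may differ between early and late libraries, was not tested. Of the other cell type markers, the summed leukocyte list was at 7.23 to 17.1 CPM early and 23.7 to 57.4 CPM late, nearly all of it LYZ and CD68, the fibroblast list was at 16.6 to 28.7 CPM early and 8.35 to 12.9 CPM late, and the endothelial list was at 0.379 to 1.39 CPM early and 0.454 to 1.23 CPM late. Of these lists, 2 of 5, 4 of 5 and 2 of 3 genes were tested, of which 5 rose (CD68, LYZ, DCN, COL1A1 and VWF) and 1, LUM, fell. Their part in the result was not tested. With upper-quartile factors in place of TMM, the median of all tested genes moved from 0.04 to 0.21 and the share of higher genes among those called from 51.0% to 63.4%. Under that scaling 33 of the 36 genes were lower and 1 was higher, with a median of -0.84, against 21.8% of all tested genes lower and 37.7% higher.

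Within a library, cells with UMIs of the cell cycle list held more of these transcripts. In cells thinned to 2000 UMIs, the median log2 ratio of the 36 genes between cells with and without cell cycle UMIs was 0.25 to 0.70 over the 8 libraries (mean 0.43, SD 0.15), while that of all genes was -0.06 to 0.05. With at least 3 UMIs of the list against 0, the ratios were 0.38 to 0.76. On day 12 in FLAG cells the ratio was 0.56 in place of 0.25 (390 of the 1568 cells with such UMIs). On day 15 it was 0.50 in place of 0.26 in FLAG cells and 0.76 in place of 0.37 in TET2CD cells. A single UMI of the list does not show that a cell was cycling, and the part of free RNA was not tested. NOP56 (median 0.78) and DKC1 (0.72) had the highest ratios and were higher in the cells with cell cycle UMIs in 8 of 8 libraries, and TAF1D (-0.25) was higher in 0 of 8. MYC had no common direction. On day 9 it was at 90.0 CPM in FLAG cells with and 137 CPM in those without cell cycle UMIs, and on day 15 at 98.6 and 76.3 CPM. In SW620-TET2CD it was at 102 and 114 CPM on day 9 and at 114 and 94.6 CPM on day 15. At 2000 UMIs MYC was higher in the cells without cell cycle UMIs in the 4 early libraries and lower in them in the 4 late ones, but this order depended on the setting. In cells thinned to 4000 UMIs, MYC on day 6 was at 132 CPM with and 131 CPM without cell cycle UMIs in FLAG cells and at 111 and 103 CPM in TET2CD cells. With at least 3 UMIs of the list required, the day 12 values in TET2CD cells were 144 CPM with and 153 CPM without. The cells of a library share 1 culture, so these values are a description.

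Cells with a MYC UMI also held more of the other 35 genes than cells without one, with the highest ratios on day 15. The median log2 ratio between cells with and without a MYC UMI, at 2000 UMIs per cell, was 0.11 and 0.10 on day 6 in FLAG and TET2CD cells, 0.05 and 0.08 on day 9, 0.19 and 0.20 on day 12, and 0.32 and 0.44 on day 15. The mean over the 8 libraries was 0.19 (SD 0.13), and the median of all genes was between -0.0003 and 0.03. The summed level of these 35 genes was 4464 CPM in cells with and 3543 CPM in cells without a MYC UMI on day 15 in TET2CD cells. There 35 of 35 genes were higher, beside 53.7% of all genes. On day 9 it was 24 of 35 in each line, beside 52.4% of all genes in FLAG and 52.2% in TET2CD cells. In all 8 libraries 11 of the 35 genes were higher, which was not counted for all genes. NOP16 (median 0.34) and MYBBP1A (0.31) had the highest ratios over the libraries. Within the cells without any cell cycle UMI, the ratio in FLAG and TET2CD cells was 0.30 and 0.13 on day 6, 0.17 and 0.06 on day 9, 0.20 and 0.22 on day 12, and 0.38 and 0.43 on day 15. Day 15 was again the highest in both lines, but FLAG cells of day 6, of which 66 held a MYC UMI and 209 did not, lay above both libraries of day 12. These ratios rest on the genes with at least 20 UMIs, which were 23 and 27 on day 6, 33 and 34 on day 9 and all 35 later, so the days are not compared over the same genes. With at least 2 MYC UMIs against 0, the ratios were 0.16 and 0.18 on day 6, 0.13 and 0.0442 on day 9, 0.27 and 0.31 on day 12, and 0.55 and 0.53 on day 15, beside medians of all genes from 0.0519 to 0.0938. On day 9 the median of the 35 genes in TET2CD cells then lay below that of all genes (0.0791), and their summed level was lower in the cells with MYC UMIs in both lines, at 6461 against 6516 CPM in FLAG cells and 6294 against 6328 CPM in TET2CD cells. A cell without a MYC UMI at this depth may still express MYC, and the difference between days was not tested.

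**Figure D4:**
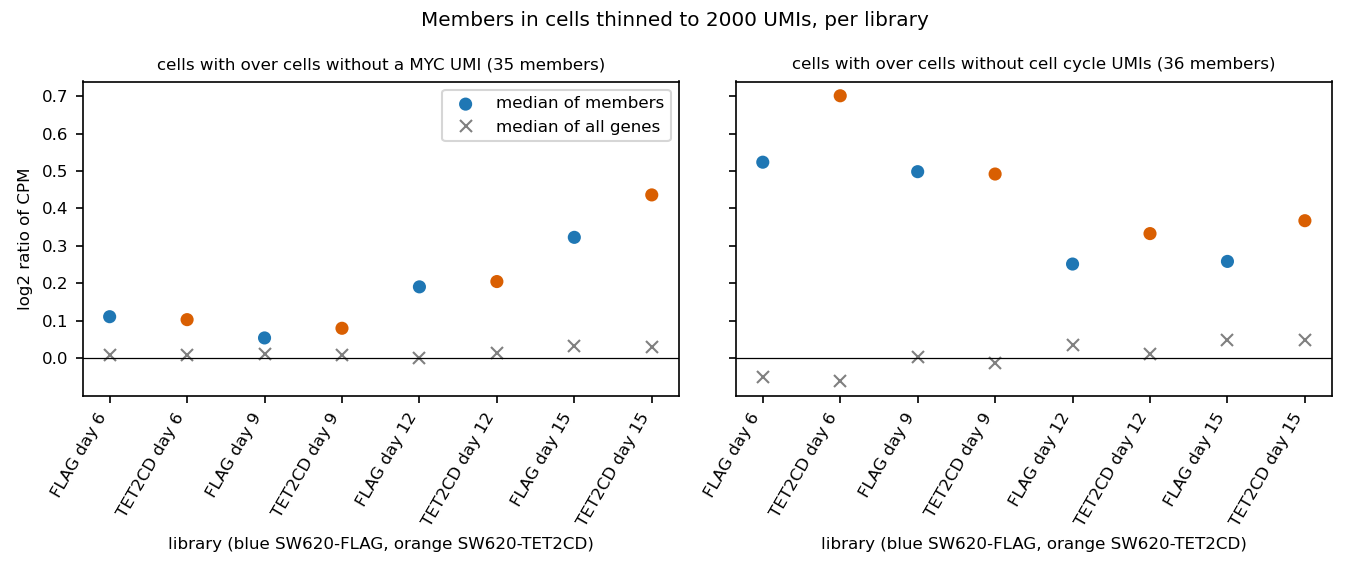
The median log2 ratio (y axis) of the genes is given per library (x axis, blue SW620-FLAG, orange SW620-TET2CD) for cells with over cells without a MYC UMI (left) and with over without cell cycle UMIs (right), with the median of all genes as grey crosses. The left ratios rise from 0.05 to 0.11 early to 0.19 to 0.44 late, and the right ratios lie between 0.25 and 0.70.

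The catalytic domain of TET2 left no called difference in these genes. With the day as a block, 0 of the 36 genes passed edgeR's quasi-likelihood test after Benjamini-Hochberg adjustment between SW620-TET2CD and SW620-FLAG, where 4.32% of 17478 genes were called, 1.84% lower and 2.48% higher. DESeq2 called 0 of the 36 as well. In the edgeR test 2 of the 36 genes were under an unadjusted p of 0.05, a smaller share than the 14.8% of all tested genes. The log2 differences ran from -0.19 (TAF1D) to 0.30 (UTP20), and their 95% intervals lay within -0.44 to 0.58. The lowest after TAF1D were DKC1 (-0.14), NOP16 (-0.10), RRP9 (-0.09) and WDR74 (-0.08), and the highest before UTP20 were POLR1A (0.26), MYBBP1A (0.21), PES1 (0.15) and HEATR1 (0.14). With 1 library left out, these 5 higher estimates kept their sign but ran from 0.15 to 0.41 for UTP20, 0.15 to 0.35 for POLR1A, 0.12 to 0.30 for MYBBP1A, 0.0305 to 0.22 for PES1 and 0.0143 to 0.23 for HEATR1. The lowest of them came without the SW620-TET2CD library of day 15, or of day 12 for PES1. With the day as a block, a day left with 1 library no longer bears on this test. Leaving out either library of a day thus gave nearly the same estimate. For RRP9 it was 0.0564 without SW620 of day 15 and 0.0486 without SW620-TET2CD of day 15. Of the 5 lower estimates, TAF1D ran from -0.25 to -0.10 and DKC1 from -0.25 to -0.08, while NOP16, RRP9 and WDR74 changed sign. UTP20 and POLR1A had adjusted p of 0.289 and 0.308 by edgeR. MYC differed by 0.00 (SE 0.10, interval -0.23 to 0.23) and MAX by -0.03 (SE 0.09, interval -0.22 to 0.16).

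Whether the late fall differed between the lines was tested as an interaction. In edgeR's quasi-likelihood test 0 of 36 genes and 0 of 17478 genes in all (0.0%) passed, 0 of the 36 and 141 of all genes (0.807%) were under an unadjusted p of 0.05, and DESeq2 called 0 genes. The estimates for the 36 genes had a median of 0.14 toward a smaller fall in TET2CD cells, from -0.32 (TAF1D) to 0.57 (UTP20), with POLR1A at 0.51 (SE 0.23) and NCL at 0.44 (SE 0.31). With 1 library left out, the median ran from -0.08 (without SW620-TET2CD of day 12) to 0.32 (without SW620-TET2CD of day 15). UTP20 ran from 0.28 to 0.90 (without SW620 of day 15 and of day 12) and NCL from 0.20 to 0.68 (without SW620-TET2CD and SW620 of day 12). For MYC the estimate was 0.20 (SE 0.36, interval -0.61 to 1.00). On simulated counts this test recovered 11.3% of genes given a log2 difference of 1, so differences of that size were mostly not detectable.

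In bulk RNA-seq, levels can be compared between genes as TPM, which divides by gene length. In SW620 on day 6, NPM1 (2262 TPM), NCL (658), NOP56 (464) and FBL (450) stood highest, MYC was at 262 TPM as the 5th of 36, and UTP20 was the lowest at 9.81 TPM. MYC was at 660 TPM inside and 683 TPM outside the SW620 colonies on day 15, 2.52-fold and 2.61-fold its day 6 level, with log2 ratios of TPM plus 1 of 1.33 and 1.38. In SW620-TET2CD on day 15 it was at 598 TPM inside and 484 TPM outside, and in SW480 on day 6 at 208 TPM. With 1 library per condition these differences have no replicate check. Fewer cells of a kind and less RNA per cell cannot be told apart in bulk samples or summed cells.

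The fall of the ribosome biogenesis genes was smaller in bulk than in the single-cell libraries of the same days. Inside the SW620 colonies 28 of 36 genes were lower on day 15 than in the day 6 culture (median log2 ratio -0.25), and outside 26 of 36 were (median -0.17), against 54.9% and 57.2% of 12962 genes with at least 5 TPM in a library. UTP20 went from 9.81 TPM to 3.83 TPM inside and 4.74 TPM outside, NOP56 from 464 to 335 and 365 TPM, and NCL from 658 to 493 and 563 TPM. TAF1D went from 154 to 185 and 192 TPM. Past a 1.5-fold difference, 5 of the 36 genes were lower inside, a share equal to the 13.9% of all genes, and 1 was lower outside, against 14.0% of all genes. MYC alone was higher in each, against 11.3% of all genes inside and 9.66% outside. All 30 cell cycle genes were lower inside, with a median log2 ratio of -1.76.

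In the single-cell SW620-FLAG libraries, the log2 ratio of day 15 over day 6 had a median of -1.23 over the 36 genes, and 35 were lower. For MYC this ratio was -0.51, opposite in sign to the bulk ratios. In TET2CD single cells MYC did not fall, at 110 CPM on day 6 and 118 CPM on day 15. The FLAG libraries of days 6 and 15 also differed in depth, with medians of 13479 and 7127 UMIs per cell. For 35 of the 36 genes the FLAG ratio was below both bulk ratios, and 26 genes were lower on day 15 in all 3 comparisons. These counts were not made for all genes. Other lists also had lower medians in single cells than in bulk inside and outside. For other ribosome biogenesis genes they were -0.93 against -0.22 and -0.16. For MYC targets outside ribosome biogenesis they were -1.48 against -0.38 and -0.24, and for cell cycle genes -2.59 against -1.76 and -1.51. Whether the smaller bulk fall is particular to the 36 genes was not tested. The bulk and single-cell libraries differ in the fraction of the culture, the part of the transcript that was read and the unit, and these cannot be told apart here.

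**Figure D5:**
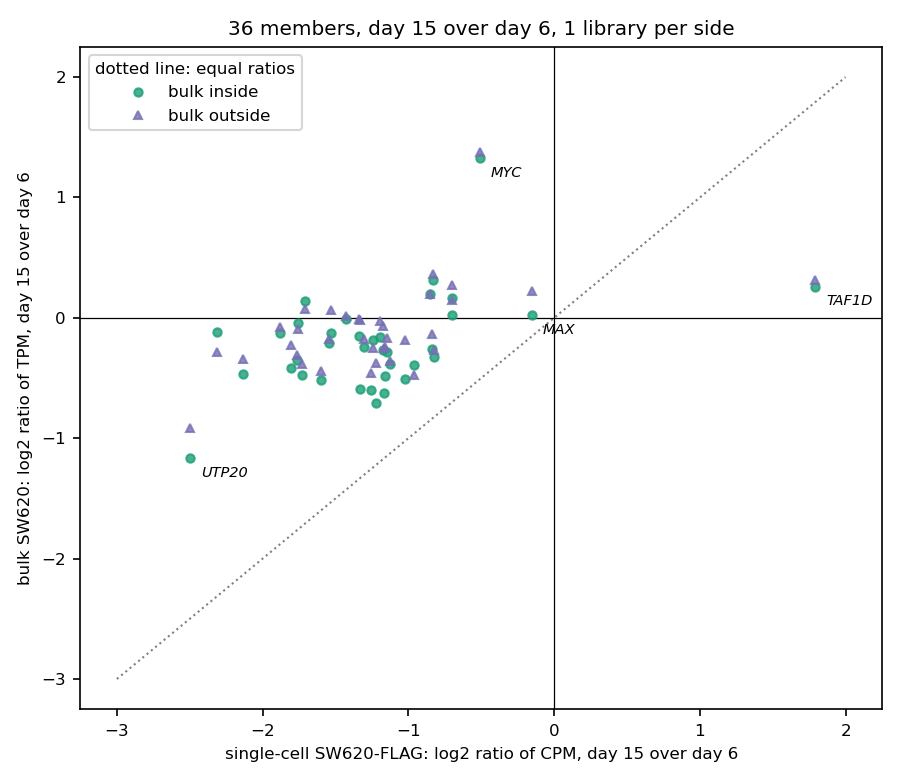
For each of the 36 genes, the log2 ratio of day 15 over day 6 in bulk SW620 (y axis, TPM, inside as circles and outside as triangles) is plotted against that in the SW620-FLAG single-cell libraries (x axis, CPM), with 1 library on each side of a ratio. MYC lies at 1.33 and 1.38 in bulk and at -0.51 in single cells, and most points lie above the dotted line of equal ratios.

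Between the outside and the inside of the colonies on day 15, none of the 36 genes was called. edgeR's quasi-likelihood test with the line as a block called 0 of 17722 genes (0.0%), with 1 of the 36 and 1068 of all genes (6.03%) under an unadjusted p of 0.05, and DESeq2 called 24 genes and 0 of the 36. The fit has 1 residual degree of freedom per gene. Log2 differences ran from -0.23 (BOP1) to 0.50 (UTP20), with a median of 0.04. In SW620, UTP20 was at 3.83 TPM inside the colonies and 4.74 TPM outside them, and in SW620-TET2CD at 5.36 and 9.07 TPM (adjusted p = 0.772 by edgeR). GAR1 (0.25), HEATR1 (0.23), RRP1B (0.17) and WDR12 (0.16) followed it, and MYC (-0.17, SE 0.17, interval -0.61 to 0.27), NOP56 (-0.14), MYBBP1A (-0.11) and TAF1D (-0.06) followed BOP1. MAX was at 0.03. With 1 library left out the line block could not be kept, so the following ranges come from fits that dropped both the library and the block, while dropping the block alone left the median at 0.04. The median ran from -0.05 (without SW620 inside) to 0.12 (without SW620-TET2CD inside). UTP20 ran from 0.0801 (without SW620-TET2CD outside) to 0.87 (without SW620 outside), and BOP1 from -0.36 (without SW620 outside) to -0.10 (without SW620-TET2CD outside). GAR1 ran from 0.0443 to 0.44, HEATR1 from 0.0390 to 0.43, RRP1B from 0.0804 to 0.25 and WDR12 from 0.0874 to 0.23. In both lines 20 genes were higher outside and 4 lower, and 12 had opposite signs, which was not counted for all genes. By TPM in SW620, 30 of 36 genes were higher outside, beside 5914 of 12962 genes, with a median log2 ratio of 0.09 against -0.01. In SW620-TET2CD 22 of 36 genes were higher, beside 7625 of 12962, with a median of 0.03 against 0.07. All 30 cell cycle genes had higher estimates outside (median 0.83), and none was called.

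In SW480, compared with SW620 on day 6, 24 of 36 genes had the lower TPM, beside 50.7% of all genes. The median log2 ratio to SW620 was -0.19 against -0.01 over all genes. The 3 box H/ACA genes of the list were higher in SW480, with GAR1 at 94.9 against 44.1 TPM. Of 10 other small nucleolar ribonucleoprotein and assembly genes, 6 were higher and 4 lower, among them NOP10 at 206 against 381 TPM. UTP4 (63.1 against 207 TPM), PPAN (17.2 against 52.7 TPM), DDX21 (57.8 against 150 TPM) and POLR1C (34.5 against 74.5 TPM) were lower in it. Past 1.5-fold, 9 of the 36 genes were lower, against 21.7% of all genes, and 1 was higher, against 22.5%, with 1 library per line.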

How the data were processed

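Single-cell RNA-seq (8 libraries) and bulk RNA-seq (6 libraries) were analysed from the files the authors deposited. The deposited single-cell matrices hold UMI counts per gene and barcode, beside other files of barcodes and gene names, and the submitters' processing notes name Cell Ranger 4.0 and GRCh38. The deposited bulk tables hold RSEM expected counts and TPM per gene. The notes name Bowtie, RSEM and mm10 beside GRCh38, although the gene identifiers are human, and their annotation release was not given in the sources used here.

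The cell limits followed the study's methods, with 200 to 4500 genes detected, between 1000 and 20000 UMIs and a mitochondrial share of at most 10%. Doublets were not called. UMIs were summed per library and tested with the two-sided quasi-likelihood test of edgeR 4.0.16 in R 4.3.3, after filterByExpr and with TMM factors, with Benjamini-Hochberg adjustment and a threshold of 0.05. Late against early days had the line as a block, and the lines had the day. Expected counts were rounded first, and the 45 pseudoautosomal copies listed on Y were not used. Bulk totals were 16470176 to 25840563 expected counts. TPM ratios used log2(TPM + 1), which understates changes of low genes. For comparisons within libraries, cells were thinned to 2000 UMIs. Cells with fewer UMIs, 18 to 89 per library, were left out, as were genes with fewer than 20 UMIs. Python 3.11.15, numpy 2.4.6, pandas 2.3.3, scipy 1.17.1 and matplotlib 3.10.9 were used. On simulated counts edgeR recovered 74% of genes given a log2 change of 1 between periods, 91% between lines and 57.6% between locations. Each simulated gene had the dispersion of the trend and no effect of the block, so recovery in the real data may be lower.

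The 36 genes and all lists were chosen with earlier results of these data known. Estimates are given for MYC and for the highest and lowest genes of a comparison, with standard errors or p-values for part of them, and values by sample for further genes of a role. The alternatives were DESeq2 1.42.0, upper-quartile factors, no ribosomal protein and mitochondrial genes, no filter on low counts, other cell limits, thinned cells, cells without cell cycle UMIs, no block, day as a number, each line alone, each library left out, and for bulk other pseudocounts, CPM and a minimum of 5 TPM.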

Additional observations from a re-analysis of the deposited data

How the results depend on the processing

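The count of 33 lower members and the rise of TAF1D held under DESeq2, other scalings, filters and cell limits, and with each library left out. Exceptions were SW620-TET2CD alone (30 lower) and cells without cell cycle UMIs (20 lower), where DDX21 was at 0.0197. Genes called late against early numbered 2875 in those cells, 6236 in SW620 alone and 5041 in SW620-TET2CD alone, and 8216 to 10356 with a library left out. Genes called between the lines numbered 1489 without the filter, 230 in cells without cell cycle UMIs, 456 in thinned cells, 46 without the day block, and 440 to 774 with a library left out (440 and 458 without the SW620 and SW620-TET2CD libraries of day 9). Genes called for the difference between lines numbered 15 without the filter. For location DESeq2 called 24 and no filter 472. The log2 ratio of MYC outside over day 6 in bulk was 1.45 as CPM, against 1.38 as TPM. Estimates that never passed the test changed sign. Late against early, MYC was at -0.15 in cells without cell cycle UMIs and -0.0400 with day as a number, and MAX at -0.01 without the filter, with every barcode, without upper limits and with day as a number (-0.00799, -0.00888, -0.00547 and -0.00741). Between the lines, MYC was at -0.00972 with DESeq2, -0.0106 without the filter, -0.00292 with every barcode, -0.0183 without upper limits and -0.0579 in cells without cell cycle UMIs, and MAX at 0.00880 with upper-quartile factors. For the difference between lines, the cells without cell cycle UMIs gave 0.0798 for TAF1D, 0.41 for RRP12 and 0.12 for DDX21. The cause was not tested. With a library left out, estimates ran for MYC from -0.0313 to 0.23 (late against early), -0.0409 to 0.0844 (lines), -0.12 to 0.46 (difference) and -0.50 to 0.15 (location), and for MAX from -0.0159 to 0.0733, -0.05 to -0.01, -0.0943 to 0.12 and -0.0722 to 0.13. Between the lines they ran from -0.21 to 0.0159 for NOP16, -0.19 to 0.0564 for RRP9 and -0.20 to 0.0779 for WDR74. For the difference they ran from -0.75 to 0.00374 for TAF1D, -0.42 to 0.0921 for RRP12, -0.64 to 0.26 for RRP9, -0.24 to 0.0311 for DDX21 and -0.48 to 0.21 for WDR74. For location they ran from -0.24 to 0.0200 for MYBBP1A and -0.19 to 0.0579 for TAF1D. The main tests were blocked by line or by day. The alternatives without a block and with each line alone had none. The location fits with a library left out also dropped the line block, a pairing of choices set after seeing the data. No pairing by replicate number was possible because no group has a second library. The 2 that ends the title of the bulk SW620 culture of day 6 is the single such number and was not read as a replicate. With 4 libraries, the location test has 1 residual degree of freedom.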
